A study of Mus musculus with 24 samples.

Results

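FGF receptors and their feedback inhibitors were followed in mouse oligodendrocytes (OLs), the myelinating cells of the central nervous system, before and after contusion of the thoracic spinal cord. The genes were 10 of the 21965 in the count table, taken by symbol: the receptors Fgfr1, Fgfr2, Fgfr3 and Fgfr4, the FGF binding protein gene Fgfbp3, the Sprouty genes Spry1, Spry2 and Spry4, and the Sprouty-related genes Spred1 and Spred3. All 10 passed the filter on low counts. The study itself names Fgfr4, Fgfbp3, Spry1, Spry4 and Spred3 among genes that respond to injury, so counts of members that rose are not independent evidence of their direction.

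The mice were female OL-Ribotag animals in which a tamoxifen-activated CreERT2 directed to mature OLs switches on an HA-tagged ribosomal protein RPL22. Immunoprecipitation of HA-tagged ribosomes gave the OL translatome (OL libraries), and the input lysate gave the RNA of all cells of the same tissue (total libraries). The 8 groups were OL and total RNA of naive, uninjured mice and of mice at 2, 10 and 42 days post-injury (dpi), each with 3 libraries. Every group carried both alleles and received tamoxifen, and the uninjured mice had no sham surgery. The study states that naive and 42 dpi tissue was collected on the same day. Tissue at 2 and 10 dpi was thus taken from younger mice and sooner after tamoxifen than naive tissue. At these 2 times injury cannot be told apart from age or time since tamoxifen. A contusion was made at the T9 level with an impactor in mice that the labels put at 10 to 12 weeks of age. The methods of the study give a younger age at injury. Each library came from the pooled spinal cord segments of a pair of mice, and each pool gave 1 OL and 1 total library. The Cre driver is also active in Schwann cells, so nerve root or invading Schwann cells can carry the tag. In bulk libraries of this kind, fewer cells of a type and less RNA per cell cannot be told apart.

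FGF ligands bind receptor tyrosine kinases with heparan sulphate and, through FRS2, GRB2 and SOS, activate RAS and the kinases RAF, MEK and ERK. Sprouty and Spred proteins restrain RAS-ERK signalling downstream of receptor tyrosine kinases, Sprouty genes are themselves induced by ERK activity, and Spred proteins act together with neurofibromin, a RAS GTPase activator. In the oligodendrocyte lineage, FGF receptors are known for roles in progenitor proliferation, in differentiation and in the growth of myelin sheaths.

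To show what lies at the start sites of members that rose in OLs at 2 dpi, 5 promoter windows are printed here. They are RefSeq sequences of build GRCm38.p6 that run from 250 bases before to 50 bases after the annotated start, 5′ to 3′ on the strand of the gene. Windows were matched for 8 of the 10 members. Fgfr1 and Spry4 had none, although Spry4 also rose in OLs at 2 dpi. Capitals mark matches on either strand to 4 searched motifs: the ETS core CCGGAA, the AP-1 motif TGANTCA, the GC box GGGCGG and the serum response element. The Spry1 window is chr3:37639697-37639996 on the plus strand, the Spry2 window chr14:105896770-105897069 on the minus strand, the Spred3 window chr7:29168598-29168897 on the minus strand, the Fgfr4 window chr13:55152568-55152867 on the plus strand and the Fgfbp3 window chr19:36919550-36919849 on the minus strand.
Spry1: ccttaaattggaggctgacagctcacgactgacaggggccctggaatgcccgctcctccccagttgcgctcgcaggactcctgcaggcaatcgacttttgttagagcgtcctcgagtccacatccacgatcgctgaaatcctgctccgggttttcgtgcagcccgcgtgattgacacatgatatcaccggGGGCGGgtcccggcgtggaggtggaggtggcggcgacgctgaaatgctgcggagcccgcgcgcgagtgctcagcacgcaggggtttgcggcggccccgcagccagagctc
Spry2: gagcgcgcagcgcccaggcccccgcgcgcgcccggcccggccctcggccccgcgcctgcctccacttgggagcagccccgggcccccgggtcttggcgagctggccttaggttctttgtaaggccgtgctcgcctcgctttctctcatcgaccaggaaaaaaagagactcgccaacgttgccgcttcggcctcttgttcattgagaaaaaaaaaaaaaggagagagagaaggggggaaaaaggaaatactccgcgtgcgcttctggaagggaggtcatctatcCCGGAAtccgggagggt
Spred3: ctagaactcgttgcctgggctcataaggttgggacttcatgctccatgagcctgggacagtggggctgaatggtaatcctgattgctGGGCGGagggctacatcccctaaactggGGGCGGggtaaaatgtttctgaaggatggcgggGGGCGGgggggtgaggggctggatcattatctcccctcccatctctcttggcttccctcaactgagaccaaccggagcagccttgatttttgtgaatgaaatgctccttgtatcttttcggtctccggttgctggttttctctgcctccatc
Fgfr4: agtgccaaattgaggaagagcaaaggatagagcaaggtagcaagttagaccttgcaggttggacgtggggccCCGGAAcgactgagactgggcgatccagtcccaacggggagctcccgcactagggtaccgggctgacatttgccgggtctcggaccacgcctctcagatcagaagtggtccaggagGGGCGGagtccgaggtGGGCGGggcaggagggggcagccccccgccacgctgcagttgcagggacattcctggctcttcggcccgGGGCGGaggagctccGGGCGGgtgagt
Fgfbp3: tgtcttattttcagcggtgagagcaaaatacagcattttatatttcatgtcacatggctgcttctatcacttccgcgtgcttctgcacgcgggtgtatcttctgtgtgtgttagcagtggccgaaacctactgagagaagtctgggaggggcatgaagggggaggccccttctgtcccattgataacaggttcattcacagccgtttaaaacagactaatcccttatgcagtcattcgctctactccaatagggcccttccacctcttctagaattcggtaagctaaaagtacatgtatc
The Spry1 and Spry2 windows are CpG-rich, with 29 and 28 CpG dinucleotides against a median of 7 over all 32851 windows. Fgfr4 has 20, Fgfbp3 has 9 and Spred3 has 8. The Spred3 window lies inside the GENCODE span of its gene, chr7:29158829-29170411, and not at the 5′ end of that span. The ETS core occurs in the Fgfr4 and Spry2 windows, 2 of the 8 matched members, and in 14.9% of all windows. GC boxes occur in 5 of the 8 members, among them Spred3, Fgfr4 and Spry1, and in 35.7% of all windows. The AP-1 motif is in 0 of the 8 and in 7.8% of all windows, and the serum response element in 0 of the 8 and in 1.6%. No binding was measured in this series, so a match describes the letters of the window.

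Library totals ran from 25840127 to 32987841 counts with a median of 29062636, and levels are given as CPM, counts scaled to a common library total by TMM factors. Intervals from counts cover counting error only. The labels name no separate cultures or donors beyond the pools, and p-values measure the spread between pools of mice. The labels of 2 libraries at 42 dpi conflict: a title calls 1 an immunoprecipitate and its description an input, and the other has them exchanged. Both were grouped by the description, which matches the columns of the table, and they fell with their group in mature OL markers. The OL and total libraries of pool 2 at 2 dpi held 2414 and 2604 counts of 4 Y-linked genes against at most 13 in the other 22 libraries, although the labels give females only. In naive OL libraries, 10 of 10 mature OL markers were higher than in total RNA, 6 of 6 neuron markers, 6 of 6 microglia or macrophage markers and 5 of 5 OL progenitor (OPC) markers were lower, and 0 of 6 astrocyte markers passed in either direction. No list had a marker at 0 in every library of an OL group. Astrocyte markers varied widely among OL libraries, with summed CPM of 1455, 1297 and 8448 in the 3 naive libraries, and Schwann cell markers summed to 13.7, 14.8 and 645. The third naive OL library therefore stood apart in both lists. Among the members, calls and values without it are given for Fgfr3 alone. For other members, an overlap with naive OL libraries that rests on it is stated.

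**Figure D1:**
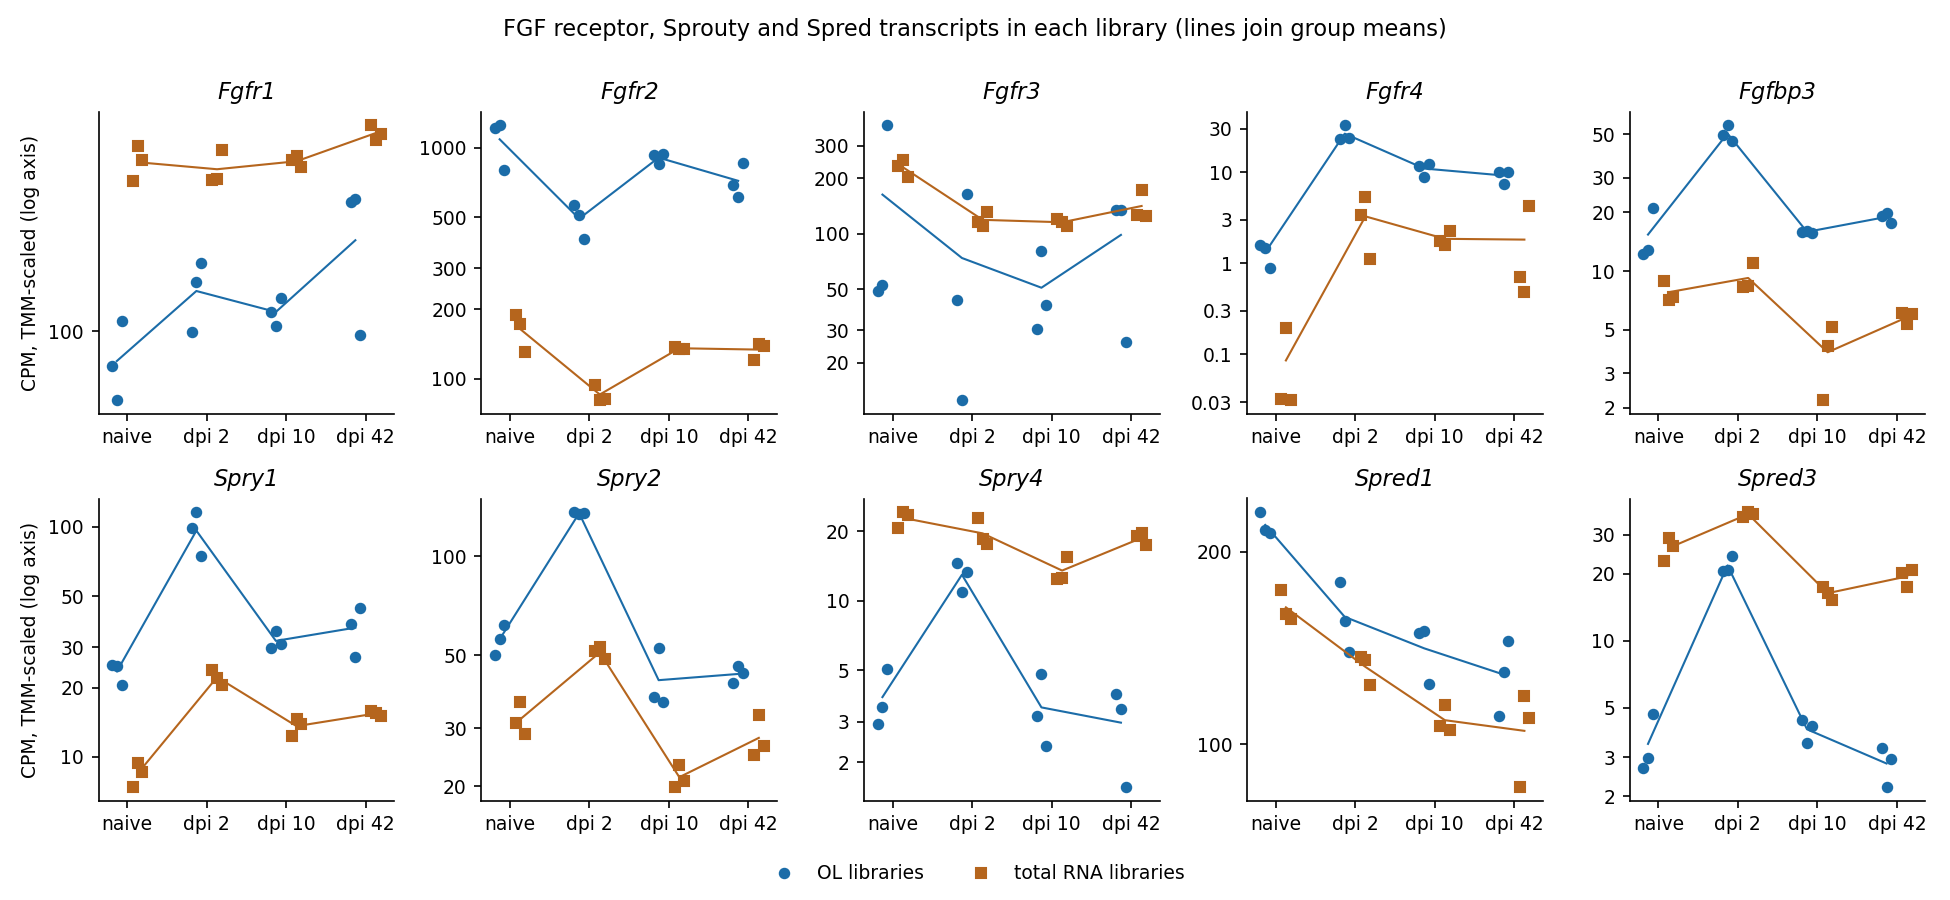
Level of each of the 10 genes in all 24 libraries, in CPM scaled by TMM factors on a log axis, by time point, with 1 point per library and lines through the group means of OL and total RNA. Fgfr4, Fgfbp3, Spry1, Spry2, Spry4 and Spred3 peak in OLs at dpi 2, Fgfr2 is lowest there, and the OL points of Fgfr3 are spread widely.

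Fgfr2 was the most abundant receptor of OLs. Per kilobase of exon, naive OL libraries held 105 CPM of Fgfr2 against 22.8 of Fgfr3, 9.34 of Fgfr1 and 0.372 of Fgfr4. Among the feedback genes, the same per-length level was 32.4 for Spred1, 26.8 for Spry2, 8.1 for Spry1, 0.806 for Spry4 and 0.553 for Spred3, with Fgfbp3 at 8.67. In that order the lowest Fgfr2 library lay above every library of the other genes, whereas Fgfr3, from 6.82 to 54.1 over its 3 libraries, could not be placed between its neighbours. At 2 dpi the order was led by Spry2 at 64.8, followed by Fgfr2 at 47.7, Spry1 at 33.1 and Fgfbp3 at 28.5 CPM per kilobase. Every Spry2 library lay above every library of Fgfr2 at this time, while Fgfr2 and Spry1, and Spry1 and Fgfbp3, overlapped. By 10 dpi Fgfr2 led again at 87.5 CPM per kilobase, as it did at 42 dpi at 69.5. In naive total RNA the order differed, led by Fgfr3 at 32.00 and Spred1 at 24.1 CPM per kilobase, with Fgfr4 last at 0.0243.

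The first question was which members belong to the OL translatome, asked as the log2 ratio of OL to total RNA (OL enrichment) and tested with edgeR's quasi-likelihood test, where a call is a Benjamini-Hochberg adjusted p (q) under 0.05 over the 17167 genes tested. In naive mice 6 members were enriched in OL libraries and 3 were depleted, against 24.9% and 30.5% of all genes. Fgfr2 was enriched by 2.73 ± 0.17 on the log2 scale (SE, n = 3 libraries a group; q = 1.92e-11), a fold of 6.63. Fgfr4 was enriched by 3.87 ± 0.83, a value that rests on 1, 6 and 1 counts in the naive total libraries and ran from 3.36 to 5.18 over the alternative settings, the highest without total library 2. Spry1, Fgfbp3, Spry2 and Spred1 were enriched by 1.48, 0.98, 0.81 and 0.43. The calls of Fgfbp3, Spry2 and Spred1 each passed in 13 of 14 alternative settings, with lowest values of 0.48, 0.30 and -0.085. At 42 dpi the enrichment of Spry2 passed in 14 of 15, with a lowest value of 0.15. Spred3 (-2.92 ± 0.20), Spry4 (-2.57 ± 0.29) and Fgfr1 (-0.78 ± 0.11) were depleted. The enrichment of Spred1 turned negative at all 4 times when libraries were scaled by their totals alone, a scaling that also moved the median of all genes by -0.50 to -0.58 in these comparisons. At 42 dpi the Spred1 ratio of 0.29 (q = 0.0469) was also lost without any of 4 of the 6 libraries (0.17 to 0.33).

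At 2 dpi 5 members were enriched and 2 depleted, against 24.8% and 28.8% of all genes. At 10 dpi the counts were 6 and 3, against 25.2% and 28.8%, and at 42 dpi again 6 and 3, against 24.9% and 28.9%. The OL and total libraries did not overlap for 9, 9, 10 and 8 of the 10 members in naive mice and at 2, 10 and 42 dpi, against 66.9%, 57.3%, 67.6% and 58.3% of all genes. Fgfr2 stayed within 2.43 to 2.74 at the 4 times, whereas Spred3 went from -2.92 in naive mice to -0.77 at 2 dpi and -2.79 at 42 dpi. For Spry4 the OL to total difference was -0.59 (q = 0.0738) at 2 dpi and was no longer called, though it passed in 5 of 15 alternative settings. Fgfr3 was called at none of the 4 times, with log2 ratios from -1.18 to -0.49. These ratios do not pair the OL and total library of a pool. With the pool as a block they were -1.27, -1.37, -1.30 and -0.81 in naive mice and at 2, 10 and 42 dpi, and none was called. Single libraries decided the ratios without a block. Without the third naive OL library the naive Fgfr3 ratio was -2.01 (q = 0.0172), and without the first or the second it was 0.10 or 0.088 (q = 0.952 and 0.966). The ratio at 2 dpi was -2.11 without the third OL library of that time (q = 0.0245), and that at 10 dpi was -1.11 with only the compared groups in the fit (q = 0.0076). Without the third OL library of 42 dpi the ratio there was -0.085 (q = 0.964) against -0.52. For Fgfr4 the ratio at 42 dpi of 2.33 was 3.93 without total library 3 of that time (q = 1.1e-05).

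**Figure D2:**
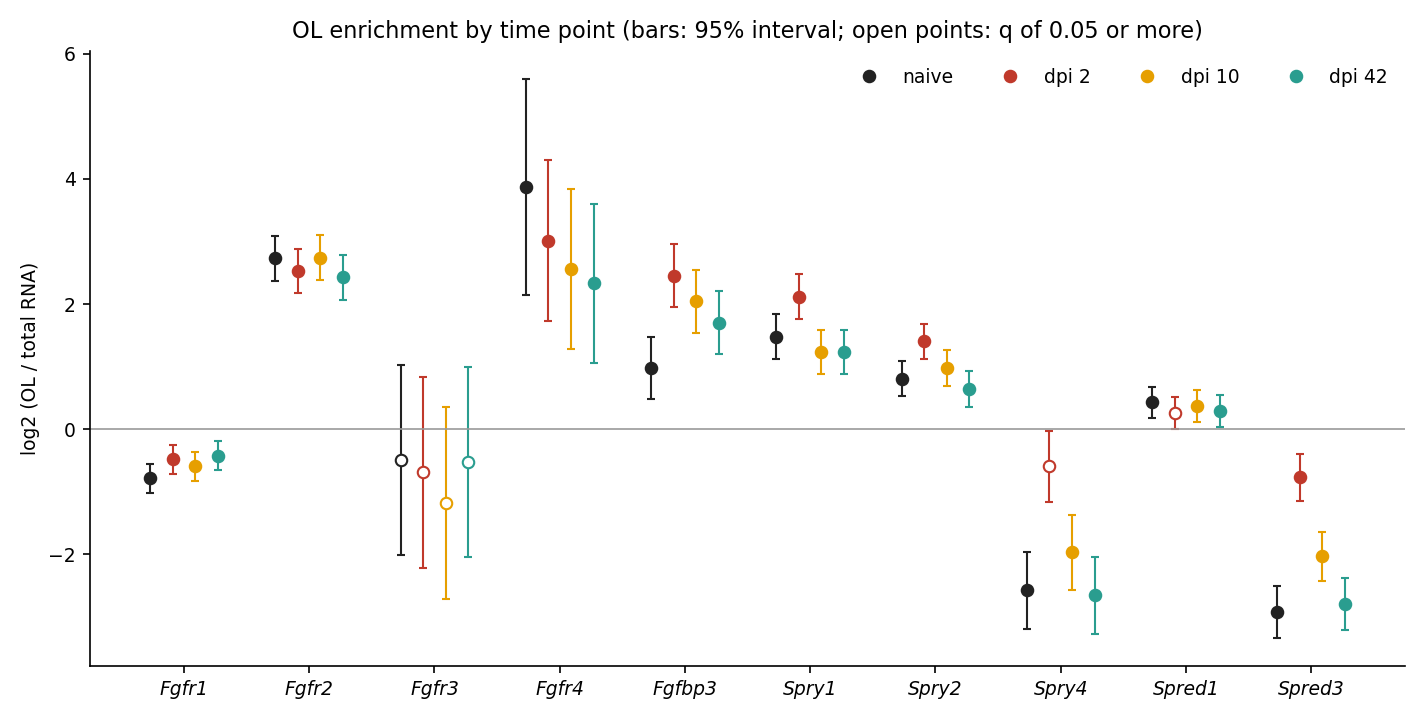
Log2 ratio of OL to total RNA for the 10 genes, with 1 point per time point, 95% intervals as bars and open points for q of 0.05 or more. Fgfr2 sits near 2.43 to 2.74 throughout, Spred3 and Spry4 are below 0 and least so at dpi 2, and the Fgfr3 intervals are wide.

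Fgfr4 rose the most of the 10 members in OLs at 2 dpi. It encodes a receptor that is scarce in the uninjured cord. Naive OL libraries held 1.6, 1.48 and 0.88 CPM (38, 35 and 23 counts). The 3 libraries at 2 dpi held 22.9, 32.8 and 23.7 CPM, those at 10 dpi 11.8, 8.94 and 12.2 and those at 42 dpi 10.03, 7.39 and 10.2. All 9 libraries of injured mice lay above all naive OL libraries. The log2 fold change was 4.33 ± 0.67 at 2 dpi (q = 2.56e-05, 20.1-fold), 3.06 ± 0.64 at 10 dpi (q = 0.00188) and 2.80 ± 0.63 at 42 dpi (q = 0.00173). The later levels were below the peak in every library, but the decline was not called, at -1.27 from 2 to 10 dpi (q = 0.126) and -1.52 from 2 to 42 dpi (q = 0.0771). It was called in 1 of 15 alternative settings for 10 dpi and in 2 of 15 for 42 dpi.

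In total RNA Fgfr4 was near the limit of detection in naive mice, with 1, 6 and 1 counts. Counts in total libraries were 121, 178 and 37 at 2 dpi, 59, 55 and 78 at 10 dpi and 25, 16 and 150 at 42 dpi. Every total library of injured mice thus exceeded every naive one, although 1 library at 2 dpi and 1 at 42 dpi stood well away from their groups. In the fit the log2 change was 5.19 at 2 dpi, 4.37 at 10 dpi and 4.34 at 42 dpi (q = 3.31e-05, 0.00028 and 0.000551). The size at 42 dpi leaned on total library 3, without which it was 2.74 (q = 0.007). Without naive total library 2 the 3 changes were 6.49, 5.67 and 5.65, and with any other library left out the change at 2 dpi ran from 4.65 to 5.59. The ratio of summed counts over all libraries, scaled for depth, was 38.2 (95% exact counting interval 19.2 to 89.3) at 2 dpi, 21.6 (10.8 to 50.8) at 10 dpi and 21.5 (10.7 to 50.5) at 42 dpi. These intervals leave out the spread between pools, and 150 of the 191 counts at 42 dpi came from total library 3. The OL and total changes of Fgfr4 were not shown to differ, with a difference of -0.86 at 2 dpi (95% interval -2.94 to 1.22).

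Fgfr2, the receptor that dominates in OLs, moved the other way. Its OL libraries held 1210.1, 1249 and 798 CPM in naive mice and 565, 511 and 401 at 2 dpi, with no overlap. They held 927, 845 and 941 at 10 dpi and 688, 612 and 853 at 42 dpi. At both times they overlapped the naive libraries only through the third, at 798 CPM. Fgfr2 fell by 1.14 ± 0.16 at 2 dpi (q = 1.1e-05), was at -0.26 at 10 dpi (q = 0.296) and fell by 0.60 ± 0.16 at 42 dpi (q = 0.00715). The change at 10 dpi was called in 1 of 14 alternative settings, over which it ran from -0.45 to -0.14. The call at 42 dpi was lost when only the naive and 42 dpi OL groups entered the fit. Fgfr2 rose again from 2 to 10 dpi, by 0.88 ± 0.16 (q = 0.00046). Total RNA showed the same direction at 2 dpi, from 188, 173 and 130.5 CPM to 93.6, 80.9 and 81.7, a log2 change of -0.94 (q = 0.000104). Of the 10 mature OL markers 2 rose and 3 fell in OLs at 2 dpi, with a median of -0.19 against 0.00 over all genes. Their summed CPM in OL libraries was 160992, 161422 and 119130.0 in naive mice and 115530.0, 128613 and 101064 at 2 dpi, overlapping only through the third naive library. Over the 12 OL libraries Fgfr2 had a Pearson correlation of 0.87 with this sum, on the log2 scale. The part of the mature OL markers in the Fgfr2 result was not tested.

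Fgfr1, which was depleted from OL RNA, passed at 1 of the 3 times. Its OL libraries held 90.9, 82.9 and 103 CPM in naive mice, 99.8, 115 and 121 at 2 dpi, 105, 101 and 109.5 at 10 dpi and 143, 143 and 98.9 at 42 dpi. It was called at 42 dpi, with a rise of 0.48 ± 0.11 (q = 0.00262), a call lost with only the compared groups in the fit. There 1 library at 42 dpi lay inside the naive range, only through the third naive library. At 2 dpi the change of 0.28 missed the threshold (q = 0.0602) but passed in 5 of 15 alternative settings. The naive and 2 dpi libraries also overlapped only through the third naive library. At 10 dpi the change was 0.19. In total RNA its 12 libraries lay between 151 and 176 CPM and no change was called.

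Fgfr3, a receptor known from astrocytes and progenitors, was too variable in OL libraries to compare. Naive OL libraries held 48.8, 53.1 and 387 CPM, those at 2 dpi 44.1, 12.6 and 165, those at 10 dpi 30.6, 81.2 and 41.4 and those at 42 dpi 135, 135 and 26.1. The groups overlapped at every time and none of the 3 OL changes was called, with -1.14 ± 0.74 at 2 dpi (q = 0.242), -1.68 at 10 dpi (q = 0.135) and -0.73 at 42 dpi (q = 0.498). Without the third library of 2 dpi the change at 2 dpi was -2.57 (q = 0.0127). Without the third naive OL library the 3 changes were 0.47, -0.0011 and 0.88 (q = 0.637, 1 and 0.33), so those at 2 and 42 dpi changed sign. In the 3 libraries of each group in the same order, the 6 astrocyte markers summed to 1455, 1297 and 8448 CPM in naive mice, 2551, 945 and 7676 at 2 dpi, 2039.7, 6259 and 2522 at 10 dpi and 12188, 10204 and 1915 at 42 dpi. The OL library with the most Fgfr3 was the one with the most astrocyte marker RNA in 4 of 4 groups, and the whole order was the same in 3 of 4. The 5 OPC markers summed to 29.5, 24.7 and 129 CPM in naive OL libraries, 39.9, 24.3 and 98.5 at 2 dpi, 39.4, 67.9 and 45.03 at 10 dpi and 85.8, 88.4 and 29.9 at 42 dpi, with the same highest library as Fgfr3 in 3 of 4 groups and the same order in 2 of 4. Over the 12 OL libraries Fgfr3 had a Pearson correlation of 0.86 with the astrocyte sum and 0.91 with the OPC sum, on the log2 scale. The part of astrocyte or OPC RNA in the Fgfr3 values was not tested.

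**Figure D3:**
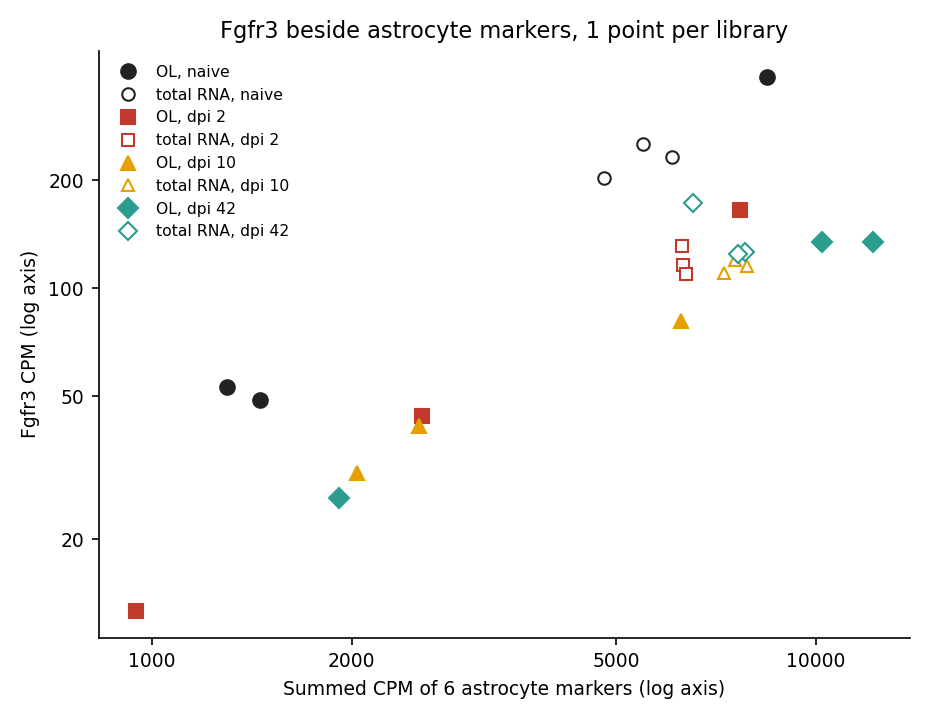
Fgfr3 level against the summed level of 6 astrocyte markers, both in CPM on log axes, with 1 point per library. In OL libraries the highest Fgfr3 point of each time is also the highest astrocyte point. Total libraries lie at 4798 to 7879 summed CPM with Fgfr3 from 110 to 252 CPM, highest in naive mice, and do not share their highest library at any time.

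In total RNA Fgfr3 was steadier and lower after injury. Naive total libraries held 232, 252 and 203 CPM, against 116, 110.0 and 131 at 2 dpi, 120.1, 116 and 111 at 10 dpi and 126, 173 and 125 at 42 dpi. Every library of injured mice lay below every naive one. With the spread shared over all 8 groups, to which the OL libraries contribute, the log2 changes of -0.94, -0.99 and -0.69 were not called (q = 0.338, 0.337 and 0.553). In a fit of the compared total groups alone they were -0.83, -0.84 and -0.58 (q = 5.24e-05, 5.59e-07 and 0.00345). Over the 12 total libraries Fgfr3 had a Pearson correlation of -0.71 with the astrocyte sum and 0.96 with the neuron sum, on the log2 scale. It was -0.92 with the fibroblast sum and -0.90 with the microglia or macrophage sum. These values pool the 4 times, so differences between naive and injured mice enter each of them. The library with the most Fgfr3 was the one with the most astrocyte marker RNA in 0 of 4 total groups. The part of these cell types in the total RNA values was not tested.

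Fgfbp3, whose secreted product binds FGFs and releases them from the matrix, rose in OLs at 2 dpi and was not called at the later times. Naive OL libraries held 12.2, 12.9 and 21 CPM and those at 2 dpi 49.7, 55.6 and 46.2, all above the naive ones. At 10 dpi the values were 15.8, 16.1 and 15.7 and at 42 dpi 19.2, 19.8 and 17.7. These lay within the naive range only through the third naive library. The rise at 2 dpi was 1.72 ± 0.24 (q = 6.84e-06, 3.28-fold), and the level then fell by 1.67 ± 0.24 to 10 dpi (q = 2.62e-05). Total RNA did not follow, with 8.92, 7.09 and 7.38 CPM in naive mice, 8.31, 8.38 and 10.97 at 2 dpi and 2.19, 4.15 and 5.19 at 10 dpi. Its change in total RNA was 0.24 at 2 dpi (q = 0.456) and it fell by 1.02 ± 0.24 at 10 dpi (q = 0.00238).

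All 3 Sprouty genes rose in OLs at 2 dpi. Spry1 held 25.2, 24.8 and 20.6 CPM in naive OL libraries and 98.5, 116 and 74.6 at 2 dpi, a rise of 2.03 ± 0.17 (q = 1.12e-08, 4.09-fold). Spry2 went from 50.1, 56.2 and 61.7 to 136, 135 and 135 CPM, a rise of 1.27 ± 0.14 (q = 2.71e-07). For Spry4 the values were 2.94, 3.47 and 5.09 and 14.6, 10.98 and 13.4 CPM, with a rise of 1.76 ± 0.29 (q = 4.98e-05). Naive and 2 dpi libraries did not overlap for any of these genes, and the 3 libraries of Spry2 at 2 dpi differed by less than 2 CPM.

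Later levels of the Sprouty genes lay near or below the naive ones, except Spry1. Spry1 held 29.8, 35.2 and 30.8 CPM at 10 dpi (0.44, q = 0.0736) and 37.8, 27.1 and 44.5 at 42 dpi, a rise of 0.63 ± 0.17 (q = 0.00587) that was lost without the third OL library of 42 dpi (q = 0.088). Spry2 held 37.5, 52.7 and 36.01 CPM at 10 dpi, a log2 change of -0.41 (q = 0.0375). That call passed in 7 of 14 alternative settings and was lost without any of 4 of the 6 libraries (-0.41 to -0.32). At 42 dpi Spry2 held 41.3, 46.3 and 44.2 CPM (-0.35, q = 0.0514), a change that passed in 5 of 14 alternative settings. Spry4 held 3.18, 4.83 and 2.36 and 3.95, 3.4 and 1.57 CPM at 10 and 42 dpi, overlapping the naive libraries at both times. From 2 to 10 dpi the 3 genes fell, with log2 changes of -1.59, -1.69 and -1.91, each with q of 5.78e-05 or less.

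In total RNA the 3 genes parted. Spry1 rose at every time, from 7.41, 9.38 and 8.59 CPM to 23.99, 22.1 and 20.6 at 2 dpi (1.39, q = 1.95e-06), 12.3, 14.6 and 13.9 at 10 dpi (0.69) and 15.8, 15.6 and 15.03 at 42 dpi (0.87). Spry2 rose from 31.2, 35.98 and 28.8 to 51.5, 53.04 and 48.7 CPM at 2 dpi (0.67, q = 0.000442) and fell to 19.9, 23.3 and 20.8 at 10 dpi (-0.58, q = 0.00209). Spry4 held 20.8, 24.2 and 23.6 CPM in naive mice and 22.8, 18.5 and 17.6 at 2 dpi (-0.22, q = 0.567), and its log2 change of -0.76 at 10 dpi (q = 0.0392) passed in 6 of 14 alternative settings and was lost without any of 5 of the 6 libraries (-0.82 to -0.70).

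Spred3 and Spred1 moved in opposite directions in OLs at 2 dpi. Spred3 held 2.69, 2.96 and 4.67 CPM in naive OL libraries and 20.5, 20.9 and 24.02 at 2 dpi, a rise of 2.66 ± 0.20 (q = 1.62e-09, 6.32-fold). It held 4.39, 3.46 and 4.15 at 10 dpi and 3.29, 2.2 and 2.93 at 42 dpi. Both overlapped the naive libraries, at 10 dpi only through the third naive library. Spred3 fell by 2.45 ± 0.19 between 2 and 10 dpi. Spred1 held 230.4, 216 and 214 CPM in naive OL libraries, 179, 156 and 139 at 2 dpi, 149, 150.3 and 124 at 10 dpi and 111, 129.7 and 145 at 42 dpi. No library of injured mice reached the naive range of Spred1, which fell with log2 changes of -0.48, -0.64 and -0.78 at 2, 10 and 42 dpi (q = 0.00336, 0.000763 and 5.07e-05). Total RNA of Spred1 fell likewise, with log2 changes of -0.59 at 10 dpi (q = 0.000734) and -0.64 at 42 dpi (q = 0.000574), whereas its change of -0.31 at 2 dpi (q = 0.0495) passed in 2 of 15 alternative settings and was lost without any 1 of the 6 libraries (-0.34 to -0.26). Total RNA of Spred3 went from 22.9, 28.9 and 26.6 to 36.2, 37.8 and 37.3 CPM at 2 dpi (0.51, q = 0.0302, passing in 9 of 15 settings and lost without any of 5 of the 6 libraries) and fell by 0.67 at 10 dpi (q = 0.00614).

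Counted over the 10 members, the OL change at 2 dpi was called up for 6 and down for 2, against 18.4% and 20% of all genes. The 6 were Fgfr4, Fgfbp3, Spry1, Spry2, Spry4 and Spred3, and the 2 were Fgfr2 and Spred1, with a median log2 change over the 10 of 1.49 against 0.00 over all genes. The 6 rises and the fall of Fgfr2 passed in 15 of 15 alternative settings, among them the fit without pool 2 of 2 dpi. At 10 dpi 1 rose (Fgfr4) and 2 fell, against 9.62% and 8.59%. At 42 dpi 3 rose and 2 fell, against 16.2% and 16.9%. Naive and injured OL libraries did not overlap for 8, 3 and 4 members at 2, 10 and 42 dpi, against 38.8%, 31.2% and 36.4% of all genes, so the counts at 10 and 42 dpi were near the background. In total RNA 4 rose and 2 fell at 2 dpi (all genes 16.4% and 20.8%), 2 rose and 5 fell at 10 dpi (13.9% and 18.2%) and 2 rose and 1 fell at 42 dpi (10.4% and 12.1%). The OL and the total comparisons use separate libraries of the same pools of mice, so they are not independent of each other. The 3 times also share their naive libraries.

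**Figure D4:**
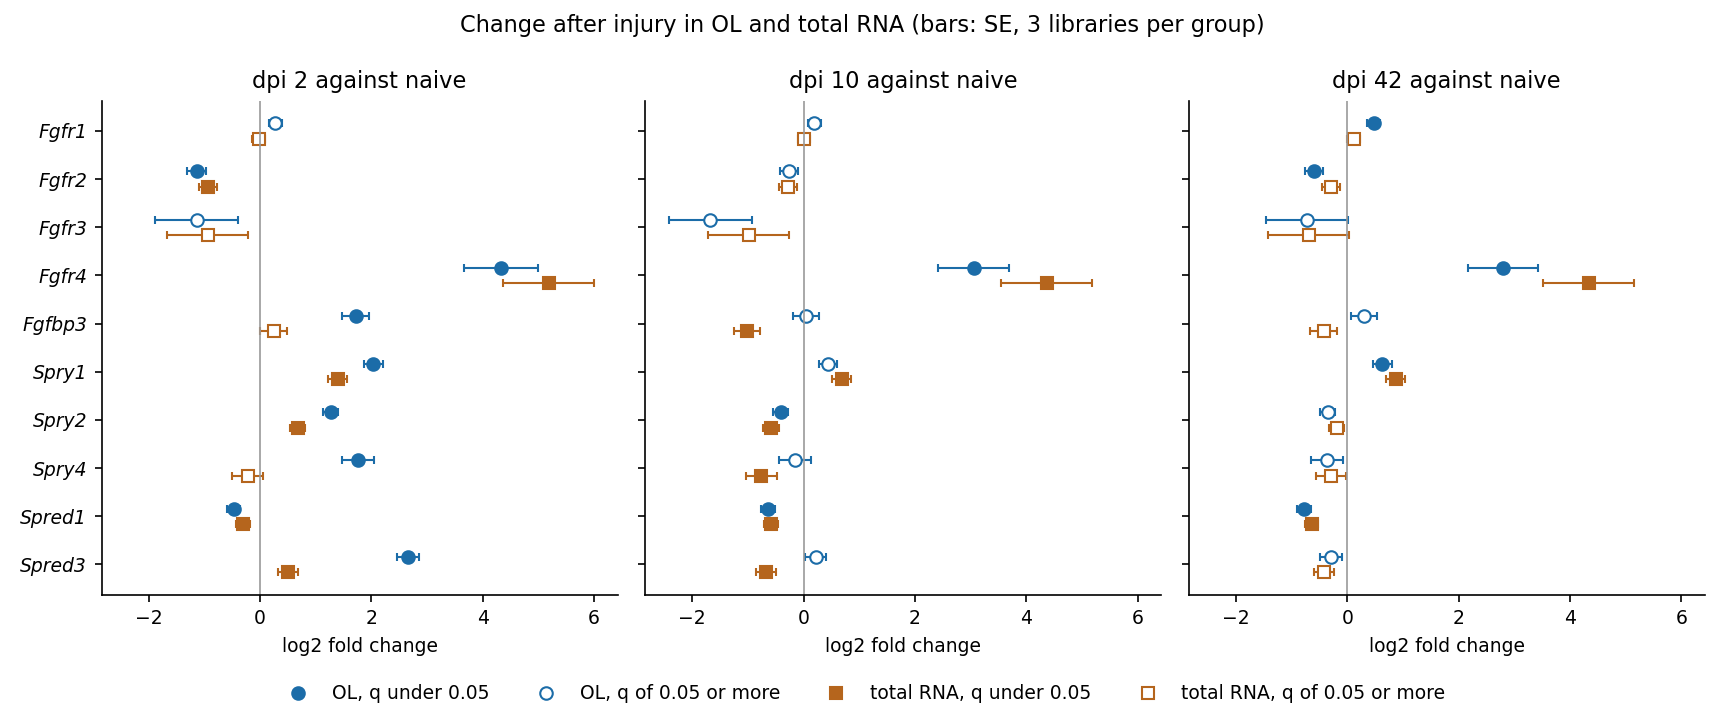
Log2 fold change of the 10 genes against naive mice at each time in OL and total RNA, with SE as bars and 3 libraries per group. At dpi 2 Fgfr4 (4.33), Spred3 (2.66), Spry1 (2.03), Spry4 (1.76), Fgfbp3 (1.72) and Spry2 (1.27) lie to the right of 0 in OL, and only Fgfr4 stays far to the right at dpi 10 and dpi 42.

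Between times in OLs, 1 member rose and 5 fell from 2 to 10 dpi, against 11.7% and 10.6% of all genes, and the same 5 genes (Fgfbp3, Spry1, Spry2, Spry4 and Spred3) fell from 2 to 42 dpi while Fgfr2 rose (8.91% and 8.66%). The rise of Fgfr2 to 42 dpi, 0.54 (q = 0.0242), passed in 10 of 15 alternative settings and was lost without OL library 2 or 3 of 2 dpi or library 3 of 42 dpi (0.39 to 0.57). From 10 to 42 dpi 0 members were called in either direction by edgeR (3.28% and 3.90% of all genes) and 0 by DESeq2, with 2 at an unadjusted p under 0.05.

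Whether a change in OLs went beyond that of the whole tissue was asked with the interaction of RNA type and time (differential OL enrichment). At 2 dpi 4 members passed upwards and 0 downwards, against 8.06% and 6.03% of all genes. Spred3 led at 2.15 ± 0.26 (q = 1.48e-05), followed by Spry4 at 1.98 ± 0.40 (q = 0.00177), Fgfbp3 at 1.47 ± 0.33 (q = 0.00435) and Spry2 at 0.60 ± 0.19 (q = 0.0392). The last of these passed in 7 of 21 alternative settings and was lost without any of 11 of the 12 libraries (0.32 to 0.63). Spry1 missed the threshold at 0.64 (q = 0.0802). Spred3 and Spry4, which were depleted from OL RNA in naive mice, thus had the largest gains relative to the whole tissue among the members. At 10 dpi 1 member passed upwards and 0 downwards, against 4.57% and 3.09%. It was Spred3 at 0.89 ± 0.26 (q = 0.0418), which passed in 5 of 20 alternative settings, was lost without any of 10 of the 12 libraries (0.62 to 0.93) and had a value of 0.92 (q = 0.0625) with the pool as a block. At 42 dpi 0 passed by edgeR, against 4.37% and 3.47%, and 0 by DESeq2, with 2 at an unadjusted p under 0.05.

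Markers of other cell types also moved in OL libraries after injury. Of the microglia or macrophage markers 6 of 6 rose at every time, with summed CPM of 9.94 to 15.5 in naive OL libraries, 38.7 to 54.9 at 2 dpi, 82.0 to 115 at 10 dpi and 45.1 to 85.2 at 42 dpi. The same sum in total RNA was 162 to 189 in naive mice, 696 to 756 at 2 dpi and 1190 to 1528 at 10 dpi. Of the fibroblast markers 4 of 4 rose at every time, from 47.5 to 77.8 summed CPM in naive OL libraries to 188 to 239 at 2 dpi, 420 to 479 at 10 dpi and 189 to 225 at 42 dpi. Schwann cell markers summed to 224, 695 and 307 CPM at 2 dpi, 1594, 961 and 914 at 10 dpi and 1271, 1226 and 1430.2 at 42 dpi. OPC markers summed to 29.5, 24.7 and 129 CPM in naive OL libraries and 39.9, 24.3 and 98.5 at 2 dpi, overlapping. The microglia, fibroblast and Schwann cell sums in OL libraries were higher at 10 than at 2 dpi in their medians. The median of the endothelial sum in OL libraries was 10.6 CPM in naive mice, 13.3 at 2 dpi and 18.6 at 10 dpi. In total RNA it was 101, 239 and 147 at the same times. The astrocyte median in OL libraries was 2551 at 2 dpi and 2522 at 10 dpi. The part of these cells in the rises of the members was not tested.

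The rest of the pathway was described from lists of its ligands, co-receptors, kinases, inhibitors and targets. Over all genes, 18.4% rose and 20% fell in OLs at 2 dpi, 9.62% and 8.59% at 10 dpi, and 16.2% and 16.9% at 42 dpi. Of 15 FGF ligand genes tested, 1 rose and 1 fell in OLs at 2 dpi, 0 changed at 10 dpi and 2 rose and 1 fell at 42 dpi. Fgf2, a ligand of most FGF receptors, rose by 2.10 ± 0.53 at 2 dpi (q = 0.00348), from 8.09 ± 8.79 to 34.8 ± 17.9 CPM (SD), was at 1.13 (q = 0.151) at 10 dpi and rose by 2.07 (q = 0.00478) at 42 dpi. Of 8 co-receptors and binding proteins, 2 rose and 1 fell at 2 dpi, and 3 rose and 1 fell at 10 and at 42 dpi. Fgfrl1, which encodes a receptor without a kinase domain, rose at all 3 times, by 1.39, 0.83 and 0.66, from 126 ± 6.54 CPM in naive mice to 329 ± 27.3 at 2 dpi. The glypican gene Gpc1 rose by 0.52, 1.28 and 1.00. Flrt1, which encodes a membrane protein that binds FGF receptors, fell at 2 dpi by 1.91 ± 0.45 (q = 0.00186) from a naive level of 10.3 ± 7.63 CPM. Fgf7 rose by 1.01 at 42 dpi, a call lost without any of 5 of the 6 libraries (0.82 to 1.03). Fgf18, below 1 CPM in every OL group mean, fell by 3.38 at 2 dpi, a call lost without naive library 3 or library 2 or 3 of 2 dpi (-2.91 to -2.85). No fold is given for Fgf3 and Fgfbp1, which had a group at or under 3 counts.

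Intracellular genes of the pathway were called in both directions. The shares over all genes beside these counts were 18.4% up and 20% down at 2 dpi, 9.62% and 8.59% at 10 dpi, and 16.2% and 16.9% at 42 dpi. Of 18 adaptors and RAS-ERK kinases, 5 rose and 7 fell in OLs at 2 dpi, 1 rose and 4 fell at 10 dpi and 2 rose and 7 fell at 42 dpi. The adaptor gene Gab1 fell by 1.41 ± 0.16 at 2 dpi (q = 4.7e-07) and the RAS exchange factor gene Sos2 had a log2 change of -1.43 ± 0.17 (q = 1.47e-06), and both were also lower at 10 dpi (-0.58 and -0.70) and 42 dpi (-0.75 and -1.31). The call of Gab1 at 10 dpi was lost without any of 3 of the 6 libraries (-0.54 to -0.51). Of 11 other negative regulators, 3 rose and 5 fell at 2 dpi, 1 rose and 4 fell at 10 dpi, and 1 rose and 5 fell at 42 dpi. The RAS GTPase activator gene Rasa1 fell, with log2 changes of -1.28, -0.51 and -1.14 at 2, 10 and 42 dpi, and its call at 10 dpi was lost without naive library 1 or library 3 of 10 dpi (-0.42 to -0.36). The ERK phosphatase gene Dusp5 rose by 4.13 ± 0.62 at 2 dpi (q = 1.99e-05) from 0.232 ± 0.255 to 4.11 ± 0.388 CPM. Dusp6, which encodes a further ERK phosphatase and is known as a target of FGF signalling, rose by 1.41 ± 0.44 at 2 dpi (q = 0.0153), with overlapping libraries of 2.88 to 16.9 and 16.1 to 27.7 CPM, and by 2.73 without the third naive OL library. The call was lost without naive library 1 or 2 or library 3 of 2 dpi (0.96 to 1.06). Dusp4, at 0.685 ± 0.211 CPM in naive OL libraries, fell by 2.30 at 42 dpi (q = 0.041), a call lost without any of 4 of the 6 libraries (-2.41 to -1.76).

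Of 9 ERK-responsive transcripts, 5 rose and 0 fell in OLs at 2 dpi, 6 rose and 2 fell at 10 dpi, and 5 rose and 2 fell at 42 dpi, with medians of 2.26, 1.47 and 1.22 on the log2 scale. Over all genes the shares up and down were 18.4% and 20%, 9.62% and 8.59%, and 16.2% and 16.9% at these times. Fos rose by 4.76 ± 0.27 at 2 dpi (q = 5.5e-11), from 3.64 ± 1.54 to 98.7 ± 5.74 CPM, and by 3.41 and 3.02 at 10 and 42 dpi. Ier3, Ccnd1, Egr1 and Myc rose by 4.21, 2.92, 2.79 and 2.26 at 2 dpi and remained above naive at both later times. The ETS factor genes Etv4 and Etv5, which are FGF targets in many tissues, did not pass at 2 dpi (0.43, q = 0.666, and -0.33, q = 0.368). Etv5 fell by 1.63 ± 0.28 at 10 dpi (q = 0.000326) and had a log2 change of -1.38 at 42 dpi (q = 0.00067), and Etv4 fell by 2.23 at 10 dpi (q = 0.0298). The Etv4 change was -0.79 (q = 0.417) without the third naive OL library, and it was also lost without library 1 or 3 of 10 dpi. In the interaction with time, 3 of the 9 passed upwards and 1 downwards at 2 dpi, 3 and 0 at 10 dpi and 2 and 0 at 42 dpi. Over all genes the shares were 8.06% and 6.03%, 4.57% and 3.09%, and 4.37% and 3.47%. Fos was at 3.16, 2.74 and 2.21 and Ier3 at 2.56, 2.23 and 2.07. The Ier3 calls were lost without any of 9 of the 12 libraries at 10 dpi (1.58 to 2.32) and 10 of the 12 at 42 dpi (1.38 to 2.18), and that of Egr1 at 10 dpi without any of 9 of the 12 (1.14 to 1.46). Outside this list Gpc1 passed upwards at 10 and 42 dpi (1.34 and 1.10) and the adaptor gene Shc1 passed downwards at all 3 times (-1.25, -1.38 and -1.37), though not at 2 dpi without pool 2 (q = 0.0935).

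**Figure D5:**
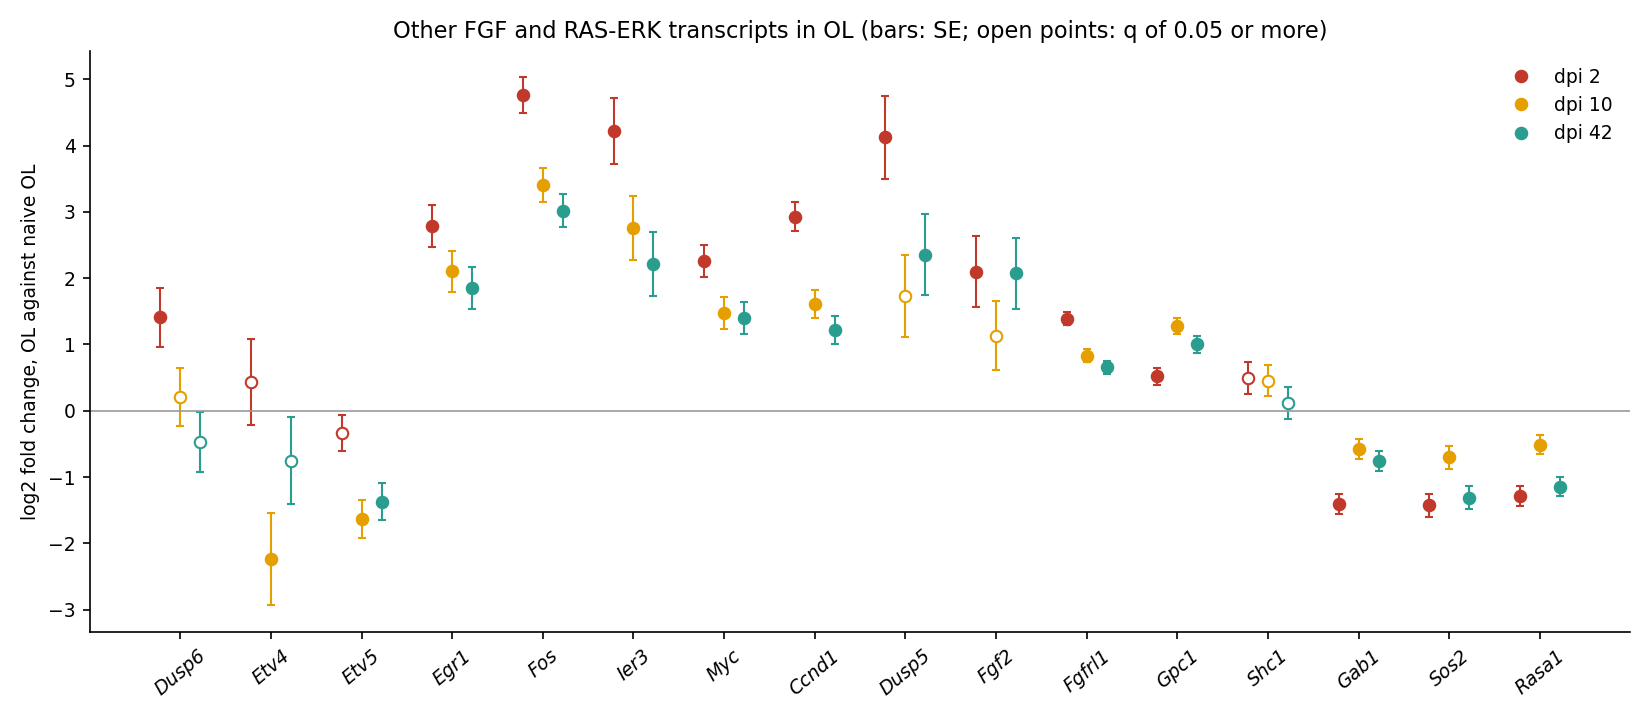
Log2 fold change in OL libraries against naive OL for named FGF and RAS-ERK genes outside the 10 members, by time point, with SE as bars and open points for q of 0.05 or more. Fos (4.76, 3.41 and 3.02) is above 0 at all times, Gab1 and Sos2 are below 0 at all times, and Etv5 is below 0 at dpi 10 and dpi 42.

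The genes with the most similar pattern to each member were taken by the highest Pearson correlation of log2 CPM over the 8 group means, among 14578 genes at 1 CPM or more in a group. They are a description of 8 points in which the step from OL to total RNA weighs heavily. For Fgfr2 these were Agap1 and Aspa (both 0.999), for Fgfr1 Nr2f1 (0.995) and Sorbs2 (0.994), for Fgfr3 Nwd1 (0.996) and Amot (0.991), and for Fgfr4 Card19 (0.994) and Col16a1 (0.990). Fgfbp3 was most like Rnf121 (0.990) and Med21 (0.989), Spry1 like Ssr2 (0.990) and Fbl (0.985), and Spry2 like Psmd11 (0.988) and Cdc16 (0.978). Spry4 and Spred3 shared a leading gene, Dpy19l3 (0.985 and 0.986), followed by Otud3 (0.985) and Chpf2 (0.984). Spred1 was most like Zfp91 (0.980) and Rnf168 (0.965).

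Reads of a few members may be shared with neighbours, since the strand setting of the counting was not given in the sources used here. In the GENCODE annotation of GRCm38, 24.4% of the Spry1 exons overlap the opposite-strand model Gm42922, 13.9% of the Fgfr3 exons overlap G630022F23Rik, 3.2% of the Spred3 exons overlap Ggn on the opposite strand and 3.0% of the Fgfr2 exons overlap Ctbp2 on the same strand.

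In the GENCODE annotation of GRCm38, every member is protein-coding. The receptor genes are Fgfr1 (ENSMUSG00000031565) at chr8:25513654-25575718 on the plus strand, Fgfr2 (ENSMUSG00000030849) at chr7:130162451-133123350 on the minus strand, Fgfr3 (ENSMUSG00000054252) at chr5:33721674-33737068 on the plus strand and Fgfr4 (ENSMUSG00000005320) at chr13:55152640-55168759 on the plus strand. Fgfbp3 (ENSMUSG00000047632) at chr19:36917550-36919615 on the minus strand is the binding protein gene. The Sprouty genes are Spry1 (ENSMUSG00000037211) at chr3:37639947-37644598 on the plus strand, Spry2 (ENSMUSG00000022114) at chr14:105891947-105896819 on the minus strand and Spry4 (ENSMUSG00000024427) at chr18:38586247-38601415 on the minus strand, and the Spred genes are Spred1 (ENSMUSG00000027351) at chr2:117121374-117182279 on the plus strand and Spred3 (ENSMUSG00000037239) at chr7:29158829-29170411 on the minus strand.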

How the data were processed

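Poly(A) RNA of OL immunoprecipitates and of total spinal cord RNA was sequenced by the authors in 24 libraries. They deposited raw read counts per gene for the whole series, made from reads checked with FastQC 0.10.1 and counted with HTSeq 0.10.0 on mm10 per the labels. Nothing was normalized in the deposited counts, and the strand setting was not given in the sources used here. Gene symbols and exon lengths came from GENCODE annotation of GRCm38, which matched 21939 of 21965 identifiers.

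Genes with fewer than 10 counts over all libraries were left out, leaving 17167. Counts were analysed with edgeR 4.0.16 in R 4.3.3 (TMM normalization, quasi-likelihood test, 1 mean for each of the 8 groups, Benjamini-Hochberg adjustment over the genes tested). TMM factors were 0.742 to 0.899 in OL and 1.10 to 1.29 in total libraries, which is a scaling between RNA types that counts alone cannot check. SE is that of the log2 fold change, and CPM per kilobase divides by the union of exons. The script was tested on simulated data. Libraries were grouped by the description label, with which 2 titles at 42 dpi conflict. Tissue numbers in the table's column names link the OL and total library of the same animals at all 4 times. Same-pool deviations correlated by 0.041 to 0.137 in naive mice, 0.088 to 0.108 at 2 dpi, 0.024 to 0.063 at 10 dpi and -0.011 to 0.020 at 42 dpi, against at most 0.050, -0.018, 0.012 and 0.025 between pools. Replicate numbers at 42 dpi name libraries only and do not match between OL and total RNA.

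The text names all 10 members, pathway genes with q under 0.05 and a log2 change over 1 in an OL change or differential enrichment, and Dusp6, Etv4, Etv5 and Fgf2 whatever their values. 1 item under this rule is not reported here. Members and lists were chosen with earlier results of these data known. Alternatives were DESeq2 1.42.0, other scalings and filters, fits of the compared groups alone, pool blocks and each library left out.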

Additional observations from a re-analysis of the deposited data

Results flagged for a closer look

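The change in OLs differed from the change in total RNA, by the interaction of RNA type and time in edgeR's quasi-likelihood test, for 4 of the 10 members at 2 dpi, against 8.06% of all genes upwards and 6.03% downwards, and for 1 at 10 dpi, against 4.57% and 3.09%. All 5 differences were upwards. At 2 dpi the differences were 2.15 for Spred3 (q = 1.48e-05), 1.98 for Spry4 (q = 0.00177), 1.47 for Fgfbp3 (q = 0.00435) and 0.60 for Spry2 (q = 0.0392), each as the OL minus the total log2 change. At 10 dpi the difference was 0.89 for Spred3 (q = 0.0418). No formal test for single outlying libraries was made in groups of 3, but each library was left out in turn.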

How the results depend on the processing

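Of the counts of members called, that for differential OL enrichment at 10 dpi, 1 as reported, was the least stable. It was 0 with DESeq2 size factors, library sizes alone, TMM with a total RNA reference or only the groups compared, 2 with DESeq2's test, 0 with the pool as a replicate block, and 0 to 2 with a library left out. The OL change at 42 dpi counted 3 members with only the compared groups, against 5, and the total change at 42 dpi counted 5 against 3. From 10 to 42 dpi the count was 0 to 2 with a library left out, with 2 reached without the third OL library of 42 dpi. The tissue pool as a block was run for OL enrichment and differential enrichment at all times and the replicate number as a block for changes at 2 and 10 dpi, not at 42 dpi, and neither changed another count by over 1.5 times. With the number as a block Fgfr1 at 2 dpi and Spry1 at 10 dpi also passed in OLs (q = 0.0145 and 0.0305). The labels give no link between pools of the same number at different times, so this block has no stated basis in the design. Scaled by library sizes alone, the OL enrichment of Spred1 reversed to -0.085, -0.31, -0.21 and -0.21 in naive mice and at 2, 10 and 42 dpi, where the median of all genes moved by -0.51, -0.57, -0.58 and -0.50. Without the third naive OL library the Dusp6 change at 42 dpi was 0.85 (q = 0.0199) against -0.47, and -0.92 to 0.85 over all libraries left out. The cause was not tested beyond the scaling. Library sizes alone raised the share of higher calls among all called genes from 47.9%, 52.8% and 49.1% to 61.6%, 70.8% and 62.3% in OL changes, from 44.0%, 43.3% and 46.2% to 63.8%, 62.5% and 65.4% in total changes, and lowered it from 45.0%, 46.2%, 46.7% and 46.3% to 24.4%, 18.5%, 19.8% and 22.6% in OL enrichment (naive, 2, 10 and 42 dpi) and to 48.5% in differential enrichment at 10 dpi. A total RNA reference lowered that share in differential enrichment from 57.2%, 59.7% and 55.7% to 26.4%, 18.4% and 18.1% and in OL changes at 10 and 42 dpi to 40.3% and 37.2%, and raised it in total changes to 56.1%, 60.25% and 64.7%. Without pool 2 of 2 dpi, 8 members were called in OL change and 3 in differential enrichment at 2 dpi, against 8 and 4. Without the conflicting libraries of 42 dpi, the OL change there kept a count of 5.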
